A study of Homo sapiens with 12 samples.

Results

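The genes described are the D cyclins CCND1, CCND2 and CCND3, their kinases CDK4 and CDK6, the E cyclins CCNE1 and CCNE2, their kinase CDK2, and the retinoblastoma gene RB1. They were taken by symbol from a table of 16383 genes, in which all 9 were found, because they encode the targets of palbociclib and the partners of those targets. In the textbook scheme, D cyclins bind CDK4 or CDK6 and E cyclins bind CDK2, and both kinds of complex phosphorylate the RB protein, which releases E2F transcription factors and lets the cell pass from G1 into S phase. Inhibitors such as p16 and p21 hold these complexes back, and a lasting arrest by this route is a defining trait of senescent fibroblasts. These are protein-level steps, whereas the data below are mRNA levels.

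RNA was measured in the established human lung fibroblast line IMR90, labelled as wild type, with 3 libraries in each of 4 groups. Proliferating cells had no treatment. The other 3 groups shared an exposure to 20 Gy of ionizing radiation given over 10 min and a harvest on day 11, and are labelled senescent: one had DMSO, the solvent control, one had 2 µM palbociclib, an inhibitor of CDK4 and CDK6, and one had 2 µM ruxolitinib, an inhibitor of the kinases JAK1 and JAK2. Both inhibitors were added on days 4, 6, 8 and 10. No unirradiated cells with an inhibitor were analysed here, and the proliferating group differs from the others in growth, irradiation and solvent at once. A change described below as with or after irradiation stands for all of these differences together.

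Over the listed genes each library held 14106799 to 21762412 reads. Values are the authors' normalized counts, which are read counts divided by 1 factor per library. All 8 fibroblast markers were present in every group, with a summed level of 813770 to 847555 in proliferating libraries, 403689 to 414316 with DMSO, 646634 to 679817 with palbociclib and 510843 to 514800 with ruxolitinib. The summed levels of 7 epithelial markers were 2131 to 2616, 1852 to 2105, 3649 to 4264 and 1864 to 2003 in the same order, mostly KRT18, and KRT5 was at 0 in every library except 1 with palbociclib. Those of 6 endothelial markers were 1681 to 1949, 2394 to 2558, 3503 to 4381 and 2249.9 to 2256, nearly all TEK, with CDH5 at 0 to 2.71, and those of 7 leukocyte markers were 544 to 571, 1224 to 1308, 697 to 807 and 1069.7 to 1149.6, mostly CD68, with PTPRC at 0 to 9.90. The fibroblast sum was mostly COL1A1, COL1A2 and VIM. Of the fibroblast markers, DCN and THY1 were higher with DMSO than in proliferating cells, and the others were lower. All of these marker sums moved between groups along with the genes below, and their part in the results was not tested. Library A126 of the proliferating group and libraries A119 and A120 of the palbociclib group lay apart from their groups on the fourth principal component, which held 3.00% of the variance. If every library were brought to an equal total, the median of all genes would shift on the log2 scale by 0.23 between DMSO and proliferating cells and by -0.23 between palbociclib and DMSO, so directions under other scalings are given where they turn. It would also move the share of higher genes among all calls from 45.7% to 64.0% and from 53.9% to 15.4% in these comparisons. In bulk RNA, fewer cells expressing a gene and less RNA of that gene per cell cannot be told apart. Nothing in the labels says that the libraries of a group came from separate cultures, so the p-values measure the spread between these libraries, which may be technical.

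**Figure D1:**
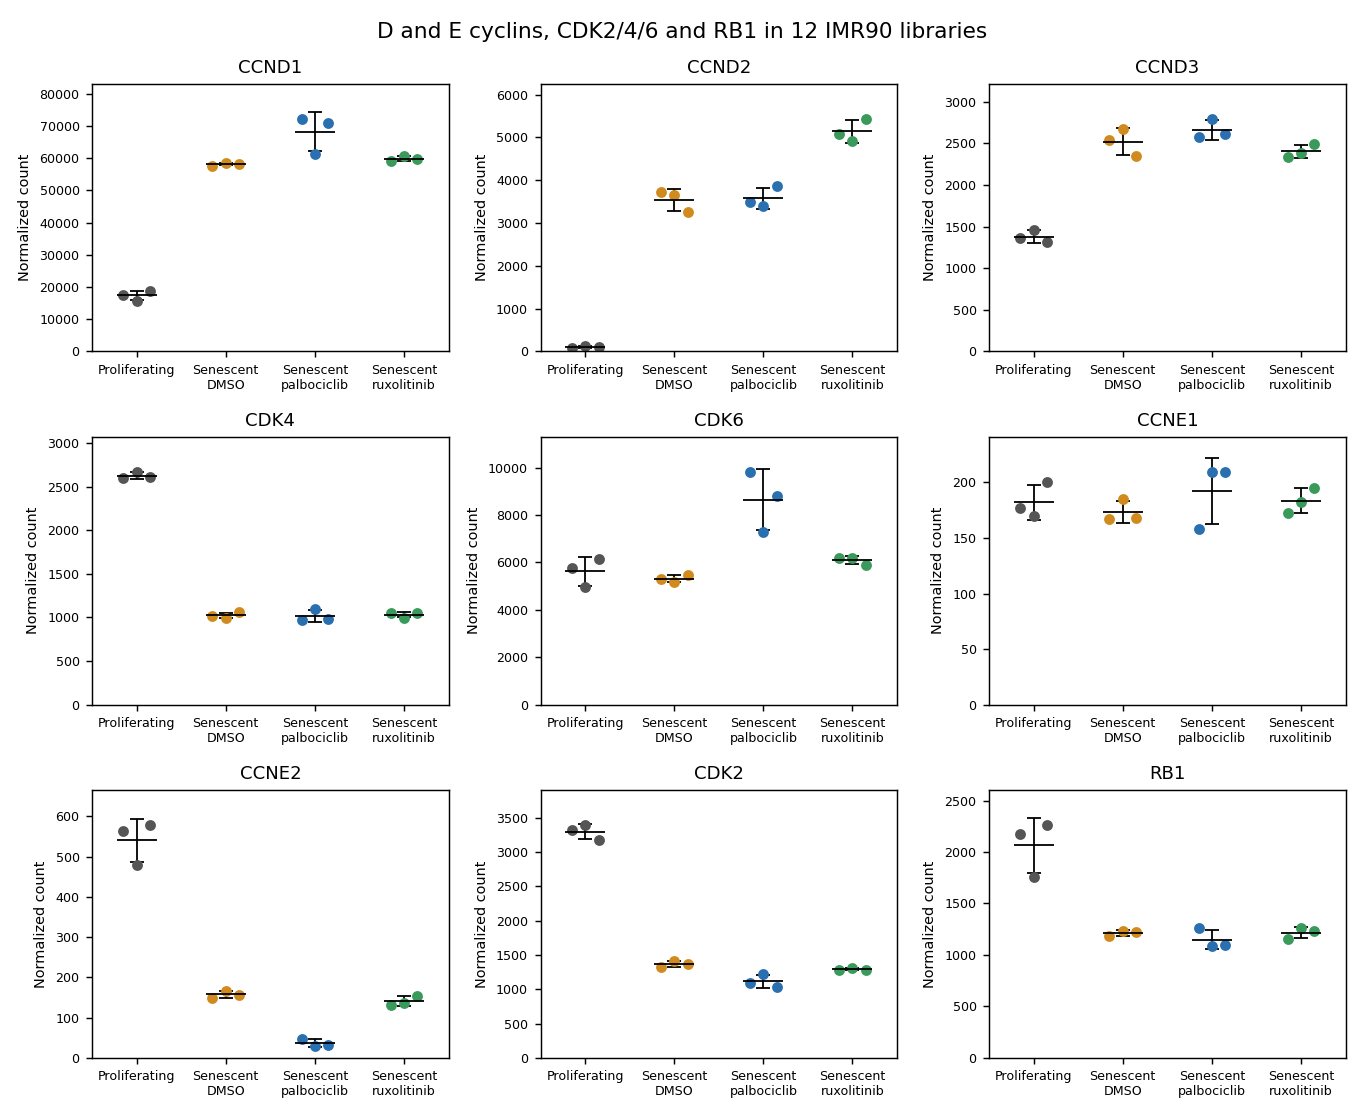
Normalized counts (vertical axis, from 0) of the 9 genes in each of the 12 libraries, with 3 points per group and the group mean ± SD as black bars. CCND1, CCND2 and CCND3 lie higher in all irradiated libraries than in the proliferating ones, CDK4, CCNE2, CDK2 and RB1 lie lower, and CDK6 stands out in the palbociclib libraries, at 7281 to 9828.

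After irradiation the D cyclin mRNAs rose while CDK4, CDK2, CCNE2 and RB1 fell, and CDK6 and CCNE1 were not called. In senescent DMSO against proliferating cells 7 of the 9 genes passed the test (limma, Benjamini-Hochberg adjusted p under 0.05 over 11242 genes), 3 higher and 4 lower. The background is high: 72.4% of all genes tested were called, 33% higher and 39.3% lower, so the count of 7 is near the background and is read as no result about these genes. Groups did not overlap for 7 of the 9, against 75.1% of all genes tested. The 9 genes had a median log2 fold change of -0.08, against -0.05 for all genes tested. The values of the single genes follow.

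Cyclin D1, encoded by CCND1 (Entrez gene 595, GRCh38 chr11:69641156-69654474, plus strand), is the D cyclin best known from growth factor responses. It was also the most abundant of the 9 mRNAs. CCND1 stood at 17619.7, 15786 and 18743 normalized counts in the proliferating libraries and at 57695, 58605 and 58275 with DMSO. The groups were far apart, and the DMSO libraries lay within a narrow band. The log2 fold change was 1.75 (SE 0.07, limma adjusted p 4.09e-12).

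With palbociclib CCND1 read 72300.3, 61378 and 70993, and with ruxolitinib 59076, 60663 and 59785. All 3 palbociclib libraries were above every DMSO library, and A120 was the lowest of them. The difference from DMSO was 0.23 on the log2 scale (SE 0.07, limma adjusted p 0.0141), but it was -0.00093 with all libraries at the same total and -0.22 (adjusted p 0.0195) after quantile normalization, so its direction depends on the scaling. Without library A121 the adjusted p was 0.0614. For ruxolitinib against DMSO the difference was 0.04 (95% interval -0.11 to 0.19, limma adjusted p 0.849).

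CCND2 (Entrez gene 894, chr12:4269771-4305353, plus strand), which encodes the D cyclin known for its part in lymphoid and gonadal growth, had the largest relative rise of the 9 genes. It was close to off in proliferating cells, with 71.6, 138 and 107 normalized counts from 69, 124 and 112 reads. The DMSO libraries held 3722, 3649 and 3252, a log2 fold change of 5.11 (SE 0.15, limma adjusted p 1.86e-13), or 34.4-fold on the log2(value + 1) scale. The spread in the proliferating group, 105 ± 33.0 (SD, n = 3), is wide for its mean, and the fold change ranged from 4.86 to 5.32 as single libraries were left out.

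The inhibitors separated on CCND2. Palbociclib libraries held 3487, 3389 and 3863, overlapping DMSO (log2 fold change 0.02, 95% interval -0.31 to 0.34, limma adjusted p 0.941). Ruxolitinib libraries held 5072, 4923 and 5441, all above the DMSO and the palbociclib libraries. Against DMSO the difference of 0.54 (95% interval 0.21 to 0.87) missed the threshold in the limma fit (adjusted p 0.0612). It passed with edgeR (adjusted p 0.00243) and DESeq2 (adjusted p 2.94e-07). The limma fit shares 1 spread over all 4 groups, and what made the fits differ was not tested. Across 24 alternatives the adjusted p of this difference ran from 2.17e-10, in the limma fit of these 2 groups only, to 0.229.

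CCND3 (Entrez gene 896, chr6:41934934-42050357, minus strand), the most widely expressed D cyclin gene, followed with a smaller change. Its normalized counts were 1360.3, 1463 and 1314 in proliferating libraries and 2539.9, 2669.5 and 2352 with DMSO. The groups did not overlap, and the log2 fold change was 0.87 (SE 0.06, limma adjusted p 3.04e-09). CCND3 stood at 2575, 2799 and 2615 with palbociclib (log2 fold change against DMSO 0.08, 95% interval -0.05 to 0.21, limma adjusted p 0.285) and at 2332, 2385 and 2495 with ruxolitinib (-0.07, -0.19 to 0.06, adjusted p 0.665), both overlapping DMSO.

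Per kilobase of the canonical transcript, the 3 D cyclin mRNAs together came to 4799 ± 312 normalized counts in proliferating cells and, after irradiation, to 15520.3 ± 163 under DMSO, 17964 ± 1371 under palbociclib and 16099 ± 200.2 under ruxolitinib (SD, n = 3). CCND1 made up 85.4%, 88.5%, 89.6% and 87.7% of that sum in the same order. The share of CCND3 was 14.3% in proliferating cells and 8.01% with DMSO, and that of CCND2 was 0.342% and 3.51%. So the D cyclin pool was mainly CCND1 mRNA in all 4 groups, and it held more CCND2 and relatively less CCND3 after irradiation. With the union of all annotated exons as the length, the CCND3 shares were 6.17% and 3.34%. Ratios within a library do not depend on how the library is scaled, apart from the 1 added to each value. On the log2 scale CCND2 to CCND1 was -7.40 ± 0.55 (SD, n = 3) before irradiation, -4.04 ± 0.11 under DMSO, -4.25 ± 0.11 under palbociclib and -3.54 ± 0.08 under ruxolitinib (exact permutation test over the 4 groups, two-sided, p = 6.49e-05, adjusted over 5 ratios 0.000108, the smallest that 369600 splits allow). No pair of groups overlapped in this ratio, although with 3 libraries against 3 the exact permutation p of a pair cannot go below 0.1. CCND3 to CCND1 was -3.65 ± 0.20 in proliferating cells and -4.53 ± 0.09 with DMSO (exact permutation p = 0.00708 over 4 groups, adjusted 0.00708), and the 3 irradiated groups overlapped in it.

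**Figure D2:**
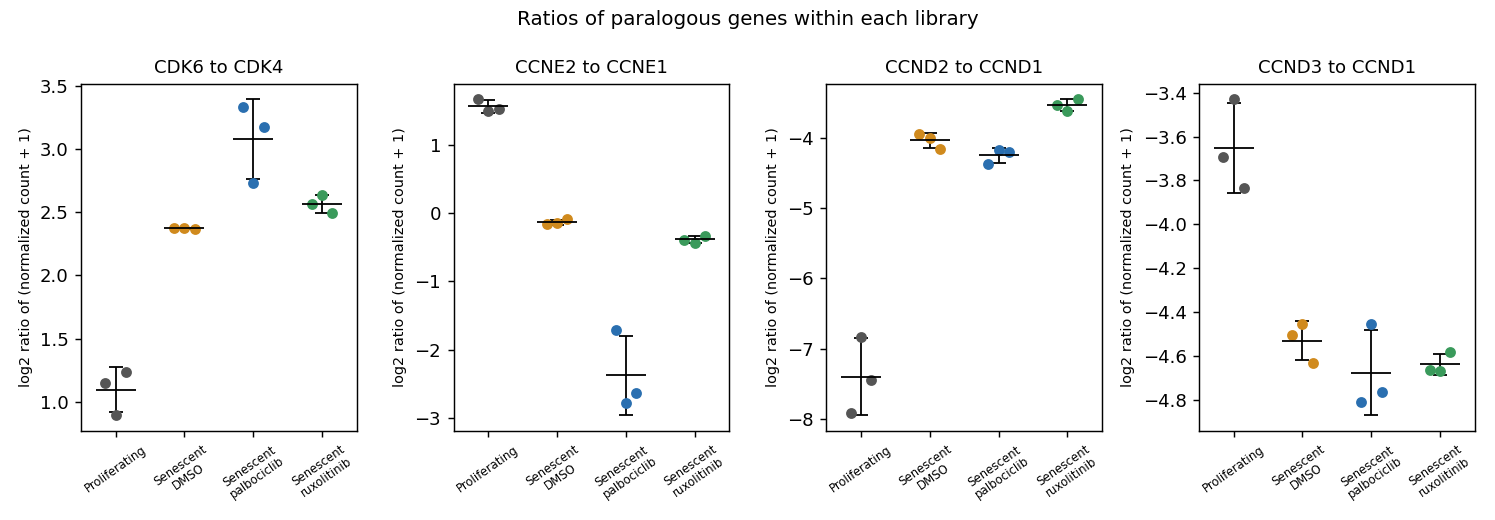
Log2 ratios of 4 pairs of related genes (vertical axes, each on its own range) in every library, with group mean ± SD as black bars. The ratio of CDK6 to CDK4 is lowest in proliferating libraries, at 0.90 to 1.24, and highest with palbociclib, at 2.73 to 3.33, and the ratio of CCNE2 to CCNE1 runs the other way.

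CDK4 and CDK6, the kinases that D cyclins activate and that palbociclib blocks, parted. CDK4 (Entrez gene 1019, chr12:57747727-57756013, minus strand) held 2597, 2669 and 2609 normalized counts in proliferating libraries and 1018, 997 and 1057 with DMSO. The groups were far apart and each was narrow, with a log2 fold change of -1.36 (SE 0.06, limma adjusted p 8.35e-12). Under the inhibitors CDK4 overlapped DMSO, at 975, 1099 and 977 with palbociclib (log2 fold change -0.01, 95% interval -0.13 to 0.11, limma adjusted p 0.885) and at 1050.1, 998 and 1049 with ruxolitinib (0.01, -0.11 to 0.13, adjusted p 0.957). At the same total CDK4 was called lower with palbociclib than with DMSO (log2 fold change -0.24, adjusted p 0.00310).

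CDK6 (Entrez gene 1021, chr7:92604921-92836573, minus strand) held 5770.2, 4968 and 6163 in proliferating libraries and 5293, 5165 and 5462 with DMSO. These groups overlapped (log2 fold change -0.08, 95% interval -0.27 to 0.11, limma adjusted p 0.434), and the sign turned under 3 scalings. Without A119, A120 and A126, a choice made after seeing the data, the value was -0.17 with an adjusted p of 0.000481. The palbociclib libraries held 9828, 7281 and 8817, all above every other library of the 12. Against DMSO CDK6 was 1.62-fold higher (log2 fold change 0.69, SE 0.09, limma adjusted p 1.81e-05), and under 24 alternatives it was 0.41 to 0.81 higher. It was called in every alternative that keeps more than 1 palbociclib library. With ruxolitinib it held 6200.2, 6199 and 5906, which did not overlap DMSO, but the difference of 0.20 (95% interval 0.01 to 0.39) was not called (limma adjusted p 0.297). A fit of only these 2 groups gave an adjusted p of 7.22e-05.

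The stretches before the start sites of CDK4 and CDK6 are shown because these paralogous kinase genes share a substrate and D cyclin partners but moved differently, and that of CCNE1 because it is the member not called in any comparison. Each is the 250 bases before the start in the RefSeq promoter table (GRCh38.p14), 5′ to 3′ on the gene's strand, at chr12:57752311-57752560 for CDK4 and chr7:92836574-92836823 for CDK6, both on the minus strand, and at chr19:29811741-29811990 on the plus strand for CCNE1. Capitals mark matches, on either strand, to any of 7 motifs: E2F (TTTCCCGC, TTTCGCGC, TTTGCCGC or TTTGGCGC), CRE (TGACGTCA), AP-1 (TGANTCA), SP1 (GGGCGG), STAT (TTCNNNGAA), the cell cycle homology region CHR (TTTGAA) and the E-box (CACGTG), the last of which was added after the CDK4 sequence had been seen.
CDK4: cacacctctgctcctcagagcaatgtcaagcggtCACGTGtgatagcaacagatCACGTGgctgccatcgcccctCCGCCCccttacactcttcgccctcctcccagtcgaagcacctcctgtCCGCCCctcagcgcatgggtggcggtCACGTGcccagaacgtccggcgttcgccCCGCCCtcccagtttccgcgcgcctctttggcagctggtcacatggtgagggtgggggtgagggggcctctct
CDK6: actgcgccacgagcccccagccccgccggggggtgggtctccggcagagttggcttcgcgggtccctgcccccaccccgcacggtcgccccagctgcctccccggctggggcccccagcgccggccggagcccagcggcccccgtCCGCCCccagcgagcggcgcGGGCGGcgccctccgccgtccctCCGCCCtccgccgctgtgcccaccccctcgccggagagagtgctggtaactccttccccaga
CCNE1: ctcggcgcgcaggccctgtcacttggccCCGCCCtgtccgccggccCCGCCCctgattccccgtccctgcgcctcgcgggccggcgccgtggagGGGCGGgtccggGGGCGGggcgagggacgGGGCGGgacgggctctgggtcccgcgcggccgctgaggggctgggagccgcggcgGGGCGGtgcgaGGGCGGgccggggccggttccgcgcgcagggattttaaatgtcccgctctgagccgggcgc
CDK4 had 3 E-boxes, the element that MYC binds, at 216 to 211, 196 to 191 and 101 to 96 bases before the start, and 3 SP1 matches. CDK6 had 3 SP1 matches and CCNE1 had 7, with none to the other 6 motifs in either. Over 35116 promoter windows of the same length an E-box was found in 6.34%, an SP1 match in 42.6% and an E2F match in 2.79%. A match says only that the letters are there. A lack of matches says only that these exact letters are absent from the window. Near matches and the bases after the start were not searched, so a lack of E2F matches does not show that a promoter has no E2F site.

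The balance of the kinase mRNAs moved toward CDK6. Per kilobase CDK6 made up 25.5% ± 2.32 (SD, n = 3) of the CDK4 and CDK6 sum before irradiation, 45.3% ± 0.079 under DMSO, 57.4% ± 5.33 under palbociclib and 48.6% ± 1.23 under ruxolitinib. With the union of all annotated exons as the length, the shares were 35.1%, 56.7%, 68.0% and 59.9% in the same order. Which kinase held the larger share under DMSO and ruxolitinib thus depends on the length used. The log2 ratio of CDK6 to CDK4 was 1.10 ± 0.18, 2.37 ± 0.0046, 3.08 ± 0.31 and 2.56 ± 0.07 in the same order (exact permutation test over the 4 groups, two-sided, p = 6.49e-05, adjusted 0.000108, the smallest possible). No 2 groups overlapped. Within the palbociclib group the ratio ran from 2.73 in A120 to 3.33 in A119, which lie at opposite ends of the fourth principal component.

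E cyclins also parted from each other. CCNE2 (Entrez gene 9134, chr8:94879770-94896678, minus strand) was lower with DMSO than in proliferating cells, and lower again with palbociclib than with DMSO. Its normalized counts were 564, 479 and 579 in proliferating libraries, 149, 167 and 157 with DMSO, 47.6, 29.6 and 32.9 with palbociclib and 132, 135 and 154 with ruxolitinib. The palbociclib values rest on 43, 27 and 37 reads, and none of them came near another group. The log2 fold change was -1.77 for DMSO against proliferating cells (SE 0.15, limma adjusted p 3.33e-08) and -2.10 for palbociclib against DMSO (SE 0.15, adjusted p 2.59e-08). Taken from proliferating cells to palbociclib, CCNE2 was 14.6-fold lower. Ruxolitinib overlapped DMSO (log2 fold change -0.17, 95% interval -0.49 to 0.15, limma adjusted p 0.656).

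CCNE1 (Entrez gene 898, chr19:29811991-29824312, plus strand), which encodes the other E-type partner of CDK2, was not called in any of the 6 comparisons. Its levels were 177, 169.7 and 199.97 in proliferating libraries, 167, 185 and 168 with DMSO, 158, 209 and 209.6 with palbociclib and 173, 183 and 195 with ruxolitinib. All 4 groups overlapped. The interval for DMSO against proliferating cells was -0.32 to 0.18 on the log2 scale, and for palbociclib against DMSO -0.11 to 0.39, so changes up to these bounds are not excluded by the fit. Without library A119, or after quantile normalization, CCNE1 was called higher with palbociclib than with DMSO (log2 fold change 0.27 and 0.31).

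The makeup of the E cyclin mRNA pool differed between groups. CCNE2 gave 68.4% of the sum per kilobase before irradiation, 39.98% under DMSO, 12.6% under palbociclib and 35.8% under ruxolitinib. The sum itself was 296 ± 27.0, 148 ± 8.16, 112 ± 11.6 and 146 ± 10.0 normalized counts per kilobase (SD, n = 3). The log2 ratio of CCNE2 to CCNE1 was 1.56 ± 0.09 before irradiation, -0.13 ± 0.04 under DMSO, -2.38 ± 0.58 under palbociclib and -0.39 ± 0.05 under ruxolitinib (exact permutation p = 6.49e-05 over 4 groups, adjusted 0.000108, the smallest possible). Every ruxolitinib library was below every DMSO library in this ratio, by 0.25 on average (exact permutation p = 0.1, the smallest for 3 against 3).

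CDK2 (Entrez gene 1017, chr12:55966781-55972789, plus strand), the kinase of the E cyclins, was lower with DMSO than in proliferating cells and a little lower again with palbociclib. It held 3316, 3397 and 3179.5 in proliferating libraries, 1329, 1418 and 1363 with DMSO, 1087, 1215 and 1038 with palbociclib and 1282, 1305 and 1288 with ruxolitinib. The 4 groups followed each other without overlap. The log2 fold change was -1.27 for DMSO against proliferating cells (SE 0.06, limma adjusted p 2.98e-11) and -0.30 for palbociclib against DMSO (SE 0.06, adjusted p 0.000671). For ruxolitinib it was -0.09 (95% interval -0.21 to 0.04, limma adjusted p 0.548). CDK2 and CDK4 fell by similar amounts with irradiation, and their log2 ratio was 0.33 ± 0.04 before irradiation, 0.42 ± 0.08 under DMSO, 0.13 ± 0.04 under palbociclib and 0.32 ± 0.06 under ruxolitinib (exact permutation p = 0.00253 over 4 groups, adjusted 0.00317).

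RB1 (Entrez gene 5925, chr13:48303744-48599436, plus strand), the gene of the substrate on which both kinds of complex act, fell with irradiation. It held 2175, 1760.0 and 2263 in proliferating libraries and 1183, 1234 and 1221 with DMSO, a log2 fold change of -0.76 (SE 0.08, limma adjusted p 7.00e-07). Neither inhibitor gave a called difference from DMSO: palbociclib libraries held 1260.5, 1088 and 1099 (log2 fold change -0.08, 95% interval -0.26 to 0.10, adjusted p 0.447) and ruxolitinib libraries 1157, 1259.7 and 1228 (0.00, -0.18 to 0.18, adjusted p 0.994). At the same total RB1 was called lower with palbociclib (adjusted p 0.00392).

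Reads of some of these genes cannot be assigned with certainty, since whether the authors counted by strand is not given in the sources used here. In GENCODE v44 the exons of TSPAN31, on the other strand, cover 57.8% of the canonical CDK4 transcript, and those of INTS8 cover 56.9% of that of CCNE2. TSPAN31 was at 219 normalized counts in proliferating cells and 465 with DMSO, against 2625 and 1024 for CDK4. INTS8 was at 704, 517, 414 and 491 in proliferating, DMSO, palbociclib and ruxolitinib cells, and its fall from DMSO to palbociclib was -0.32 on the log2 scale, against -2.10 for CCNE2. A gene on the same strand covers 15.4% of the CCND2 transcript. LTO1 covers 11.7% of that of CCND1, and a long noncoding gene 12.8% of that of CDK2, both on the other strand.

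**Figure D3:**
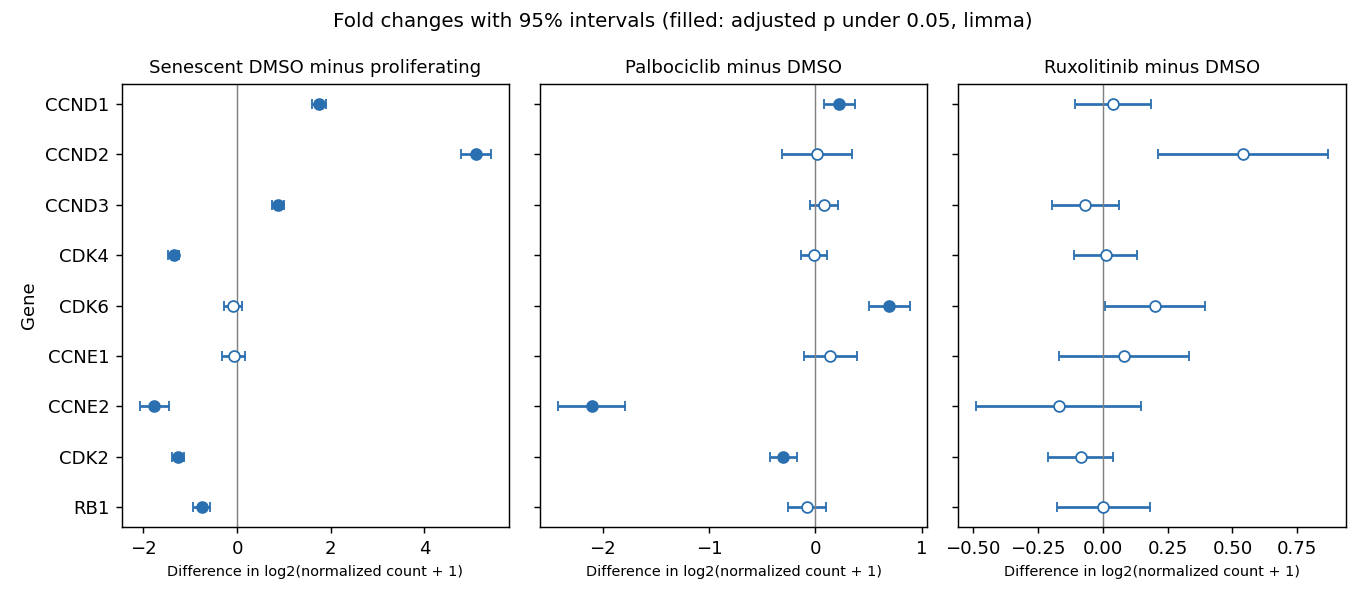
Differences between groups in log2(normalized count + 1) for the 9 genes (horizontal axes, each on its own range), with 95% intervals from limma, filled where the adjusted p is under 0.05. In the left panel CCND2 stands at 5.11, in the middle panel CDK6 at 0.69 and CCNE2 at -2.10, and no point in the right panel is filled.

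Palbociclib against DMSO addressed what the CDK4/6 inhibitor did in irradiated cells. CDK6 and CCND1 rose and CCNE2 and CDK2 fell. The calls of CDK6, CCNE2 and CDK2 held under every alternative that keeps more than 1 palbociclib library. That of CCND1 was lost without A121 and turned in sign at the same total and after quantile normalization. This is 4 of 9 genes called, where 48.3% of all genes tested were called (26% higher, 22.3% lower), again near the background. Groups did not overlap for the same number, 4, against 54.8% of all genes. The median of the 9 was 0.02, as was that of all genes. At the same total 1 gene was higher and 4 were lower, and CDK6 was the higher one. Over all genes tested 940 were then higher and 5170 lower.

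Ruxolitinib against DMSO addressed the JAK inhibitor, and here limma called 0 of the 9 genes, with a background of 4.52% of genes called, 1.1% higher and 3.42% lower. At an unadjusted p under 0.05 there were 2, CCND2 and CDK6, both higher, and edgeR and DESeq2 each called 1, which was CCND2. Groups did not overlap for 4 of the 9 genes (CCND1, CCND2, CDK6 and CDK2), against 31.9% of all genes tested. The fit of these 2 groups alone called CCND2 and CDK6, and the share of all genes called in it was not taken.

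Set directly against each other at the same dose and days, the 2 inhibitors differed in 5 of the 9 genes, with 40.4% of all genes called, 22.8% higher and 17.6% lower with palbociclib. Groups did not overlap for 6, against 51.8% of all genes. CDK6 was higher with palbociclib by 0.49 (SE 0.09, limma adjusted p 0.000549), while CCNE2 was lower by 1.93 (value -1.93, SE 0.15, adjusted p 9.14e-08), CDK2 by 0.22 (value -0.22, adjusted p 0.00882) and CCND2 by 0.52 (value -0.52, adjusted p 0.0133). CCND1 was higher by 0.19 (adjusted p 0.0436), a call that was lost under 14 of 24 alternatives and turned in sign under 2. CCND3 differed by 0.15 (adjusted p 0.0628) and was not called, and intervals for CDK4 (-0.14 to 0.10), RB1 (-0.26 to 0.10) and CCNE1 (-0.19 to 0.31) held 0. With all libraries at the same total, CDK4 (-0.22, adjusted p 0.00562) and RB1 (-0.28, adjusted p 0.00781) were called lower with palbociclib, and the 9 genes gave 1 higher and 5 lower in place of 2 and 3. Over all genes tested that scaling gave 847 higher and 4531 lower in place of 2561 and 1983, and moved their median by -0.20. Without A124, 3 of the 9 were called, since CCND1 and CCND2 (adjusted p 0.0518) dropped out.

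Against proliferating cells 8 of 9 genes were called with palbociclib, 4 higher and 4 lower, where 73.8% of all genes were (35.2% higher, 38.6% lower), and groups did not overlap for 8, against 70.9%. With ruxolitinib 7 were called, 3 higher and 4 lower, where 72.2% of all genes were (32.6% higher, 39.5% lower), and groups did not overlap for 7, against 76.2%. Both counts are near the background. CCNE1 overlapped proliferating cells under both inhibitors and was not called. CDK6 was higher by 0.61 with palbociclib (limma adjusted p 1.72e-05) and differed by 0.12 with ruxolitinib (adjusted p 0.244). The latter call depends on the scaling, since CDK6 was called higher with ruxolitinib at the same total (0.32, adjusted p 0.00337), at the same upper quartile (0.30, adjusted p 0.00642) and after quantile normalization (0.35, adjusted p 0.00107). These comparisons share libraries with those above and are not independent of them.

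Ordered by level per kilobase of canonical transcript, CCND1 led in every group, with 4102 normalized counts per kilobase in proliferating cells and 13731 with DMSO. In proliferating cells CDK2 (1472) and CDK4 (1408) came next and overlapped, then CCND3 (681), CDK6 (483) and RB1 (433), of which the last 2 overlapped, CCNE2 (202), CCNE1 (93.3) and CCND2 (16.2). With DMSO the order after CCND1 was CCND3 (1244), CDK2 (612), CDK4 (549), CCND2 (545), CDK6 (455), RB1 (254), CCNE1 (88.6) and CCNE2 (59.0), and only CDK4 and CCND2 overlapped. Palbociclib put CDK6 after CCND1 and CCND3, at 741, above CCND2 (551), CDK4 (545) and CDK2 (497), each of which overlapped the next. Ruxolitinib put CCND2 in that place, at 792, and CDK2 (576), CDK4 (553) and CDK6 (523) did not overlap as neighbours. So CCND2 went from last place to the upper or middle ranks and CCNE2 took its place. With the union of all annotated exons as the length, the first and the last of each order were the same genes, but CCND3 moved down and CDK6 up in all 4 groups, and CCND2 moved up under DMSO and ruxolitinib.

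**Figure D4:**
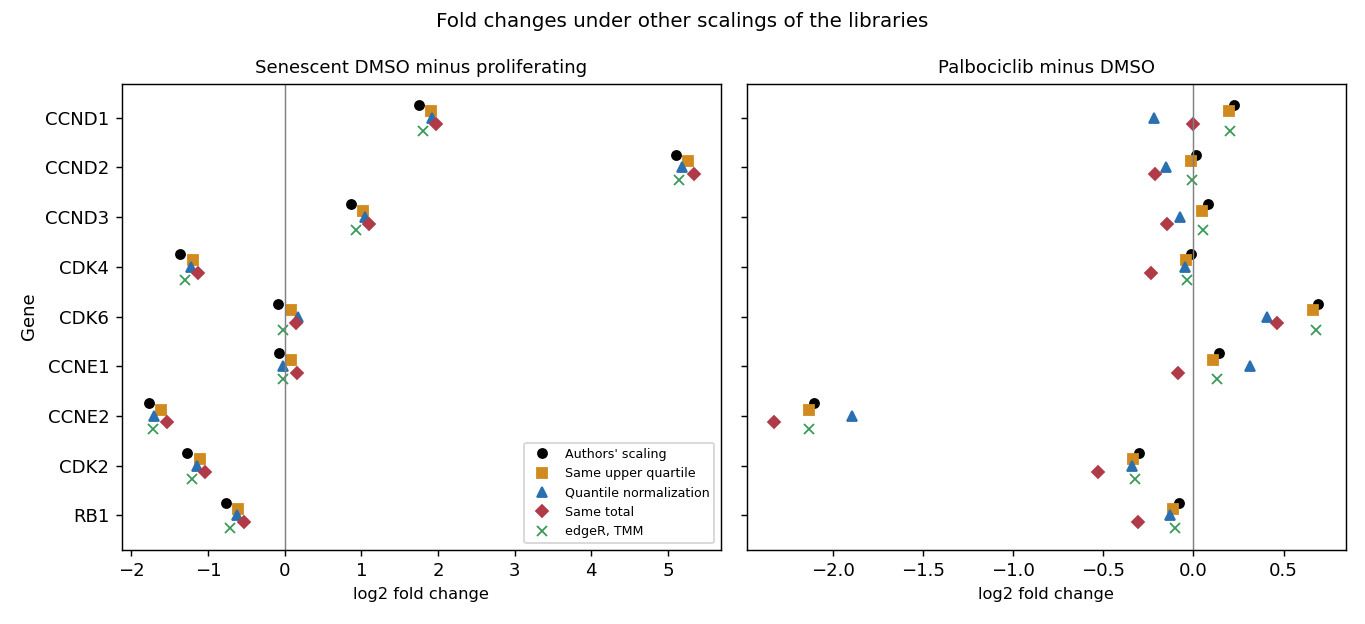
Log2 fold changes (horizontal axes) of the 9 genes under the authors' scaling, the same upper quartile, quantile normalization, the same total and edgeR with TMM factors. For DMSO minus proliferating the points of CCND2, CDK4, CCNE2, CDK2 and RB1 stay on 1 side of 0 and those of CDK6 straddle it, and for palbociclib minus DMSO those of CDK6, CCNE2 and CDK2 stay on 1 side while those of CCND1 straddle it.

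Among 9249 genes with enough counts, those whose levels tracked each member most closely over the 12 libraries were ranked by Pearson's r on the log2 scale, as a description: the libraries fall into 4 groups, which set most of each r. Nearest to CDK6 were AFAP1 (r = 0.993), MAP3K20 (0.979) and SCN9A (0.971), and to CCNE2 RRM2 (0.994), a subunit of ribonucleotide reductase, KIF20A (0.993) and DLL4 (0.992). CCND2 was nearest to KCNJ2, FAM210B and EPS8L2, CCND3 to PPP2R5B, ITM2B and PSAP, CDK4 to CLDN11, PCOLCE and HNRNPA1, CDK2 to PSRC1, RRM1 and H2AZ1, and RB1 to SLC36A4, NUP188 and NCBP3, all with r of 0.992 or more. CCNE1 had no such neighbour, as its highest r was 0.804, with EPS15L1.

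The other genes of the pathway were read from 8 lists. Among all genes tested, 72.4% were called for DMSO against proliferating cells, 48.3% for palbociclib and 4.52% for ruxolitinib against DMSO. List counts near these shares are read as no result about the list. CDK inhibitor genes were mixed after irradiation: of 6 tested, 2 rose and 3 fell, with a median of -0.32 against -0.05 for all genes. CDKN1A, which encodes p21, rose from 3389 ± 195 to 29150.3 ± 662 normalized counts (SD, n = 3; log2 fold change 3.11, limma adjusted p 4.55e-15), while CDKN2C, encoding the CDK4/6 inhibitor p18, fell from 962 ± 41.2 to 94.5 ± 22.9 (-3.36, adjusted p 4.10e-11) and CDKN1B, encoding p27, from 1006 ± 34.7 to 420.2 ± 14.1 (-1.26, adjusted p 4.21e-10). Palbociclib lowered 3 of the 6 and raised none, with a median of -0.37. CDKN1A was at 14779 ± 998 (-0.98 against DMSO, adjusted p 3.37e-09), still above proliferating cells, and CDKN2A, encoding p16, at 120.3 ± 10.1 against 174 ± 12.6 (-0.53, adjusted p 0.00151). At the same total all 6 were called lower. With ruxolitinib 1 of 6 passed, CDKN2B, at 451 ± 25.8 against 349 ± 14.4 (0.37, adjusted p 0.0454).

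Of the 11 pocket protein, E2F and DP genes tested, all 11 fell after irradiation (median -0.69), and 9 did at the same total. RBL1, encoding the RB relative p107, fell from 1024 ± 145 to 218 ± 17.4 (-2.22, adjusted p 2.18e-11), more than the -0.76 of RB1. With palbociclib 5 fell further and 2 rose (median 0.01 against 0.02 for all genes): RBL1 reached 106 ± 2.02 (-1.03, adjusted p 9.23e-07) and E2F1 200.2 ± 15.3 from 277 ± 14.4 (-0.47, adjusted p 0.000392). At the same total 7 fell and none rose. With ruxolitinib limma, edgeR and DESeq2 called none of the 11.

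Downstream of RB, all 18 E2F target genes of DNA synthesis fell after irradiation (median -2.46) and 17 of 18 fell further with palbociclib (median -1.01), with the same counts under each scaling tried. CCNE2 itself, a known E2F target, lay at -1.77 and -2.10. The other E cyclin gene, CCNE1, lay at -0.07 and 0.14 and was not called in either comparison. RRM2 went from 1586 ± 56.8 with DMSO to 175 ± 6.72 with palbociclib (-3.17, adjusted p 3.99e-15), TYMS, the thymidylate synthase gene, from 377 ± 16.1 to 63.4 ± 6.77 (-2.56, adjusted p 4.01e-12). Ruxolitinib lowered 4 of 18 (median -0.21), among them RRM2, at 1187 ± 51.9 (-0.42, adjusted p 0.000176). The 5 S phase and mitotic cyclins and CDK1 that were tested were lower with DMSO than in proliferating cells and with palbociclib than with DMSO (medians -2.95 and -1.22). With ruxolitinib 4 of 5 fell (-0.37). CDK1 stood at 2259.6 ± 107 before irradiation, 330.1 ± 25.7 under DMSO, 36.0 ± 2.59 under palbociclib and 204 ± 13.4 under ruxolitinib. Of 5 DREAM and MuvB subunits tested, 4 fell after irradiation (median -0.97) and 2 with palbociclib (-0.18), led by FOXM1, a mitotic transcription factor, at 107 ± 19.9 against 556 ± 21.9 (-2.39, adjusted p 8.72e-11).

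Enzymes that switch CDKs on or off fell after irradiation in 7 of 8 cases (median -1.65), among them the phosphatase gene CDC25B, from 3521 ± 153 to 819 ± 9.80 (-2.10, adjusted p 8.37e-14). Under palbociclib 4 were lower and 1 higher (median -0.43), the latter not called by edgeR or DESeq2, and PKMYT1, an inhibitory kinase gene, was at 27.9 ± 4.81 against 108 ± 9.26 (-1.92, adjusted p 3.75e-08). Of 16 genes of cyclin turnover and CDK folding, 4 rose and 8 fell after irradiation (median -0.21). With edgeR and with DESeq2 6 rose and 8 fell, and at the same total 7 rose and 8 fell (median 0.02). SKP2, whose product marks p27 for destruction, fell from 859 ± 20.3 to 308 ± 15.6 (-1.48, adjusted p 3.55e-11). With palbociclib 6 rose and 2 fell (median 0.13), but 0 rose and 4 fell at the same total. AMBRA1, a substrate adaptor in the turnover of D cyclins, fell from 588 ± 24.4 to 429 ± 23.1 (-0.45, adjusted p 0.000141). Limma, edgeR and DESeq2 called none of the 16 with ruxolitinib.

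Activators of D cyclin transcription moved in both directions. Of 16, 5 rose and 9 fell after irradiation (median -0.43 against -0.05 for all genes), and at the same total 7 rose and 8 fell. ETS1 fell from 4884 ± 588 to 2002 ± 64.5 (-1.28, adjusted p 3.75e-10) and the AP-1 gene FOSL1 from 6315 ± 446 to 2738 ± 169.6 (-1.20, adjusted p 8.82e-11). With palbociclib 7 fell and 1 rose (median -0.17), and 15 fell at the same total. ETS2 was at 1533 ± 57.4 against 2611 ± 69.5 (-0.77, adjusted p 5.21e-09). With ruxolitinib 2 of 16 fell, one of them STAT3, a JAK effector, at 3052 ± 40.2 against 3649 ± 55.6 (-0.26, adjusted p 0.0139).

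**Figure D5:**
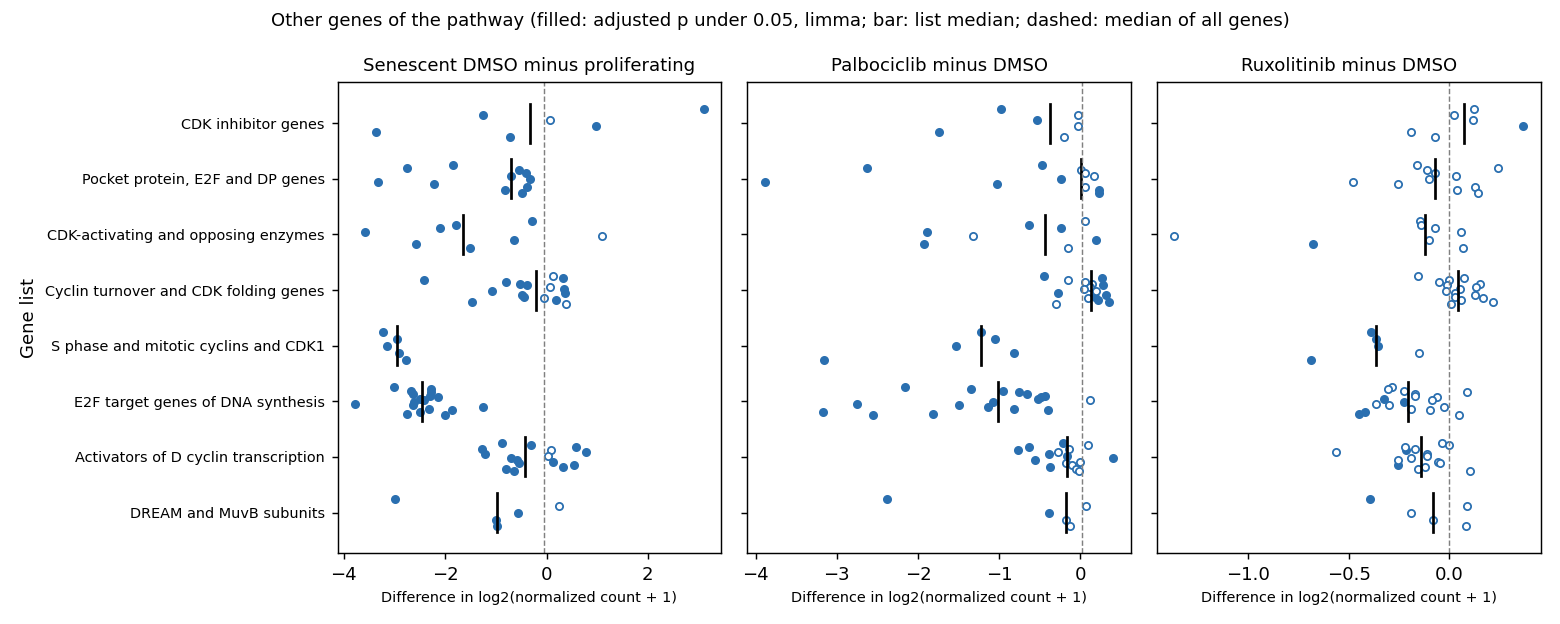
Differences in log2(normalized count + 1) of the genes of 8 lists (horizontal axes, each on its own range), filled where the limma adjusted p is under 0.05, with the list median as a black bar and the median of all genes as a dashed line. E2F targets and S phase and mitotic cyclins lie left of the dashed line after irradiation, at medians of -2.46 and -2.95, and again with palbociclib, at -1.01 and -1.22.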

How the data were processed

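Poly(A) RNA of 12 libraries of IMR90 cells was sequenced. The authors deposited 1 table of normalized counts per Entrez gene, a signal that is never negative, with 16383 genes. Per the submitters' processing notes, Trimmomatic 0.38.1, HISAT2 2.2.1, featureCounts 2.0.3 and DESeq2 2.11.40.8 were used, with hg38; their settings are not given in the sources used here. All 160380 deposited signal values above 0 were whole multiples of 1 read's worth (tolerance 0.01), so whole reads were recovered (100%), 14106799 to 21762412 per library over the listed genes. Columns carry a library number (A116 to A127) and a group but no replicate number.

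Limma 3.58.1 (R 4.3.3) was fitted to log2(normalized count + 1) with 4 group means over all libraries and a variance trend, for 11242 genes with a mean of at least 10. All adjusted p-values of genes are Benjamini-Hochberg values over these genes from this fit unless another tool is named, and fold changes on this scale understate changes of low genes. Intervals are 95%. Ratios within a library were tested by exact permutation. The scripts were tested on simulated data. Alternatives were pseudocounts of 0.1 and 5, no filter, a mean of at least 50, same total, same upper quartile, quantile normalization, no trend, 2 groups only, edgeR 4.0.16 (TMM) and DESeq2 1.42.0 on recovered reads, each library left out, and, added after seeing the data, A119, A120 and A126 left out together. Without A119, A120 and A126 only 1 palbociclib library is left, so comparisons with palbociclib in that fit hold no spread within its group. Positions, transcript lengths and overlaps come from GENCODE v44 (GRCh38). The promoter table has no entry used here for CCND1, CCND2, CDK2 and RB1, and the promoter of CCNE2 is not reported here. That of CCND3, with 2 SP1 matches and none to the other motifs, is not printed.

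The 9 genes and the lists were chosen with earlier results of these data known. Of each list, up to 3 genes per comparison could be named: those called with the largest changes whose higher mean is 100 or more. Of the list genes, CDKN1C and CCNA1 were too low to test, and E2F7 and LIN9 were not analysed here. The genes whose levels tracked CCND1 most closely are not reported here.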

Additional observations from a re-analysis of the deposited data

Results flagged for a closer look

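The effects of the inhibitors, which share the DMSO libraries, differed from each other in 5 of the 9 genes by the direct limma comparison of palbociclib with ruxolitinib (Benjamini-Hochberg adjusted p under 0.05). In this comparison 40.4% of all genes tested were called. The difference, palbociclib minus ruxolitinib on the log2 scale, was 0.49 for CDK6, -1.93 for CCNE2, -0.52 for CCND2, -0.22 for CDK2 and 0.19 for CCND1. All 3 palbociclib libraries lay on the stated side of all 3 ruxolitinib libraries in each of the 5. Such groups did not overlap for 51.8% of all genes tested. Of the 24 alternatives, the fit without A119, A120 and A126 leaves 1 palbociclib library. The differences of CDK6, CCNE2 and CDK2 were called in the same direction under all 24 alternatives, that of CCND2 under 23, and that of CCND1 under 8.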

How the results depend on the processing

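Of 54 pairs of gene and comparison, 32 kept their direction and their side of the threshold under all 24 alternatives, 16 turned in sign under at least 1, 3 lost a call and 11 gained one. The counts of called genes stayed at 7 to 8 for DMSO and for ruxolitinib against proliferating cells, 8 to 9 for palbociclib against proliferating cells and 3 to 5 for palbociclib against DMSO. For ruxolitinib against DMSO the count of 0 became 1 with quantile normalization, edgeR or DESeq2 and 2 in the fit of 2 groups and without A119, A120 and A126, and it was 0 to 1 as single libraries were left out (1 without A119, A120, A125 or A126). For palbociclib against ruxolitinib it was 3 to 6 as single libraries were left out, with 3 without A124. The 5 ratios kept their calls under every alternative run for them.

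Most turned signs were of differences near 0. At the same total, DMSO minus proliferating became 0.15 for CDK6 and 0.16 for CCNE1, palbociclib minus DMSO -0.00093 for CCND1, -0.21 for CCND2, -0.15 for CCND3 and -0.086 for CCNE1, ruxolitinib minus DMSO -0.013 for CDK4 and -0.023 for RB1, and palbociclib minus ruxolitinib -0.016 for CCND1, -0.054 for CCND3 and -0.14 for CCNE1. At the same upper quartile, DMSO minus proliferating became 0.078 for CDK6 and 0.086 for CCNE1, and palbociclib minus DMSO -0.014 for CCND2. After quantile normalization, DMSO minus proliferating became 0.18 for CDK6, palbociclib minus DMSO -0.22 for CCND1, -0.15 for CCND2 and -0.072 for CCND3, ruxolitinib minus DMSO -0.033 for CCND1, and palbociclib minus ruxolitinib -0.19 for CCND1 and -0.0093 for CCND3. Palbociclib minus DMSO for CCND2 was -0.0080 with edgeR and -0.0062 with DESeq2. Ruxolitinib minus proliferating for CCNE1 was -0.039 without A119, A120 and A126. An equal total or upper quartile by construction shifts all genes of a library together, while quantile normalization does not; any other cause was not tested.

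As single libraries were left out, palbociclib minus DMSO ran from -0.044 to 0.054 for CCND2 and from -0.068 to 0.018 for CDK4. Ruxolitinib minus DMSO ran from -0.0073 to 0.036 for CDK4 and from -0.024 to 0.037 for RB1, and palbociclib minus ruxolitinib from -0.080 to 0.0062 for CDK4 and from -0.011 to 0.19 for CCNE1. For CCNE1 against proliferating cells the range was -0.00010 to 0.20 under palbociclib and -0.039 to 0.079 under ruxolitinib. No paired analysis was possible because the columns carry no replicate numbers, so a fit with a replicate block was not run.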

Other observations

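Libraries A126 and A120, which lay at the same end of the fourth principal component (-17.1 and -17.6), also shared a pattern among the 9 genes. Each was the lowest of its group of 3 for CCND1, CDK6, CCNE2 and RB1 and the highest for CCND3, CDK4 and CDK2. The canonical transcripts of CCND1, CDK6, CCNE2 and RB1 have 4238, 11663, 2674 and 4768 bases, those of CCND3, CDK4 and CDK2 2026, 1865 and 2240 bases. CCND2 and CCNE1 did not share the pattern. CCND2 (6493 bases) was highest in A126 and lowest in A120. CCNE1 (1954 bases), as short as the genes that were highest, was lowest in A126 and in the middle in A120. The part of transcript length in this pattern was not tested. Leaving out A119, A120 and A126 together keeps 1 palbociclib library, A121, and so no spread within that group. CDK6 in A121, at 8817 normalized counts, was above the DMSO libraries, at 5165 to 5462.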
